A study of Mus musculus with 15 samples.

Results

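Gene expression in the mouse secondary palate at E15.5 was compared with both neighbouring stages, E14.5 and E16.5, to find transcripts that stood high or low at that stage. The comparison was between 9 of the 15 libraries of a developmental time course that runs from E13.5 to P0, the day of birth, with 3 libraries per stage. All 15 libraries entered the fit and its estimate of the spread. Every library came from dissected palatal shelves of animals labelled WT, and the labels name no treatment, strain or litter, so the stage was the only labelled difference between the groups. Each library pooled the palates of 3 embryos, so the spread between replicates is the spread between pools. A gene was called a peak when E15.5 was higher than the mean of E14.5 and E16.5 at an adjusted p under 0.05 (edgeR's quasi-likelihood F test, with p-values adjusted by Benjamini-Hochberg across every tested gene) and every E15.5 library lay above all 6 others. A dip was the reverse. Levels are in CPM, counts scaled to library size and composition, and differences are on the log2 scale with their standard error (SE).

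Of 54232 genes in the table, 22151 had enough counts to be tested, and 191 of these (0.862%) were higher and 17 (0.0767%) lower at E15.5 than the mean of its neighbours. The calls comprised 52 peaks (0.235% of tested genes) and 13 dips (0.0587%). Among the peaks with a mean of at least 10 CPM, the 4 whose smaller step was largest were *Mcidas*, *Ccno*, *Cdc20b* and *Deup1*, genes with which multiciliated epithelial cells build many centrioles. In bulk tissue, fewer cells of a type and less RNA per cell cannot be told apart. The number of peaks depended on single libraries. It was 8 without E15.5 replicate 2 and 8 without replicate 3, 356 without replicate 1, 27 and 16 without E14.5 replicates 1 and 2, and 24 and 23 without E16.5 replicates 2 and 3.

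Multiciliated cells of the airway-type epithelium carry many motile cilia that move mucus, and such epithelium covers the nasal side of the palate. Their precursors leave the cell cycle, and the coregulator multicilin then acts with E2F factors to switch on a short programme of centriole amplification. That programme runs partly on deuterosomes, transient platforms present while centrioles are being made. Afterwards the centrioles dock at the cell surface, and the axonemes, the microtubule cores of the cilia, are built with dyneins, tektins and radial spoke proteins.

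The 9 libraries held 37109472 to 69019565 counts each, so 3 counts, taken as the floor of detection, corresponded to 0.0421 to 0.0830 CPM. The palate patterning genes were present in all 9, at 544 to 1050 summed CPM. Several libraries stood apart in genes of other tissues. Olfactory receptor genes summed to 223 and 200.4 CPM in E15.5 replicates 2 and 3, but to 10.8 CPM in E15.5 replicate 1, 16.8 to 40.9 CPM at E14.5 and 20.6 to 64.0 CPM at E16.5. Genes with at least 1 count numbered 30266 and 30182 in E15.5 replicates 2 and 3 and 27093 to 28470 in the other 7 libraries. Trunk Hox genes, which mark tissue behind the head, summed to 658, 216 and 71.9 CPM in E14.5 replicates 1, 2 and 3, against 0.752 to 10.2 CPM at E15.5 and 1.38 to 52.7 CPM at E16.5. Choroid plexus markers reached 1447 and 796 CPM in E14.5 replicates 1 and 3 and 31.4 to 111 CPM in the other 7 libraries, and pituitary markers reached 1507 CPM in E16.5 replicate 1. Counts of 4 Y-linked genes were 7 to 12 in the E16.5 libraries and 20 in E15.5 replicate 1, against 3707 to 12218 in the other 5, so they varied within E15.5 and followed stage only in part. Of the 52 peaks, 0 lay on the X chromosome, which held 3.28% of tested genes, and 0 on the Y chromosome. The part of sex in the calls was not tested.

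**Figure D1:**
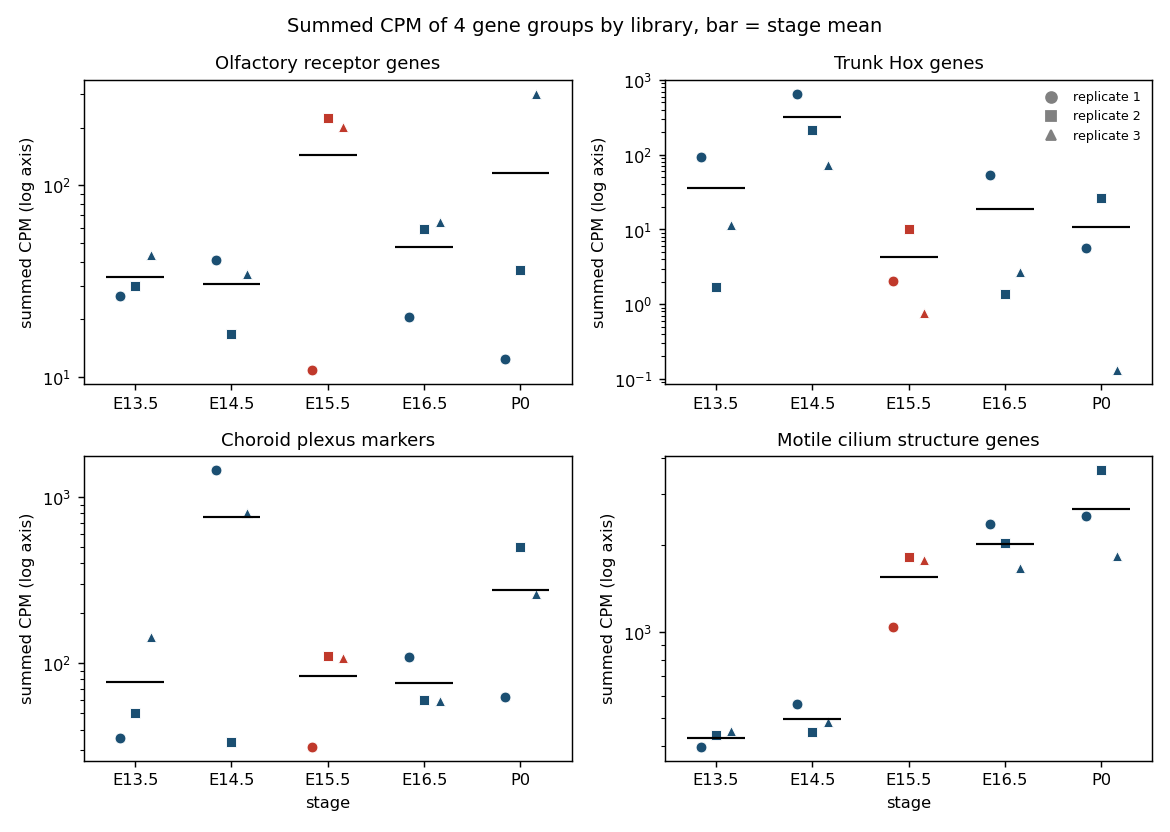
Summed CPM of olfactory receptor genes, trunk Hox genes, choroid plexus markers and motile cilium structure genes in each library (y axes, logarithmic) by stage (x axes), with bars at stage means and E15.5 in red. Olfactory receptor genes were at 223 and 200.4 CPM in E15.5 replicates 2 and 3 and at 10.8 CPM in replicate 1, and motile cilium genes were higher in every E15.5 and E16.5 library than in every E14.5 library.

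The tightest group of peaks lay on chromosome 13, where *Ccno*, *Mcidas* and *Cdc20b* follow one another on the same strand (build mm10). *Ccno* (112987802 to 112990777) encodes cyclin O, which is needed for centriole amplification. *Mcidas* (112993845 to 113000394), which encodes multicilin, begins 3068 bases further on, and *Cdc20b* (113035111 to 113091195), which encodes a deuterosome protein, begins 34717 bases after the end of *Mcidas*. No other pair among the peaks and dips lay within 100 kb of each other. The 250 bases before the RefSeq starts of *Ccno* and *Mcidas* are shown because both genes were peaks and both windows hold the letters GTTGCC (reverse complement GGCAAC), a half-site of the X-box that RFX factors bind at ciliary genes. Capitals mark that match, which begins 219 bases before the start of *Ccno* and 195 before that of *Mcidas*. Both sequences are from RefSeq on GRCm38.p6, plus strand, at chr13:112987552-112987801 and chr13:112993618-112993867, and the last bases of the *Mcidas* window lie inside the gene as GENCODE draws it.
Ccno: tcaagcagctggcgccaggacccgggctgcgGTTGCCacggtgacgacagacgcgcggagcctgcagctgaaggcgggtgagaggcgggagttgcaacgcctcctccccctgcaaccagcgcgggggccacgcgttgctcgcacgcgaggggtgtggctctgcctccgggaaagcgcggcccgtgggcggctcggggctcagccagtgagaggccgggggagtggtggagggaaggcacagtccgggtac
Mcidas: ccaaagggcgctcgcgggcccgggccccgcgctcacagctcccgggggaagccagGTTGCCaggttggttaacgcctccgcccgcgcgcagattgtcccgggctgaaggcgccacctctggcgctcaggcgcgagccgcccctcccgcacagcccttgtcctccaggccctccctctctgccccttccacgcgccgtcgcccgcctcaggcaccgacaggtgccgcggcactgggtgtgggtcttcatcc

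The match is a description of these letters, not a measured site. On either strand, GTTGCC stood in at least 1 window of 9 of the 38 peak genes that RefSeq's table held (23.7%), against 11.8% of all 27025 genes in the table. *Deup1*, the deuterosome scaffold gene, had the match 79 bases before a start, and the window of *Cdc20b* had none. The letters TAACNG, a MYB motif, were found for 10 of the 38 genes (26.3%), against 22.3% of all genes. The E2F letters TTTGGCGC or TTTCGCGC were found for 0 of the 38, against 0.759% of all genes.

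*Mcidas* was at 1.95, 0.545 and 1.49 CPM in the E14.5 libraries, 10.97, 22.9 and 22.6 CPM at E15.5 and 2.53, 2.57 and 3.01 CPM at E16.5. The lowest E15.5 library was 3.65 times the highest of the other 6. The difference from the mean of the neighbours was 3.31 (SE 0.45, adjusted p 0.00689, edgeR), made of a rise of 3.83 from E14.5 and a change of -2.80 to E16.5. *Ccno* stood at 3.02, 1.24 and 2.29 CPM at E14.5, 15.9, 36.4 and 38.1 CPM at E15.5, and 6.80, 6.501 and 5.06 CPM at E16.5. Its stages did not overlap, and its difference was 3.04 (SE 0.35, adjusted p 0.00267, edgeR). *Cdc20b* was at 1.29, 0.242 and 0.871 CPM, then 10.2, 18.3 and 17.9 CPM, then 2.44, 4.21 and 3.03 CPM over the 3 stages (difference 3.27, SE 0.49, adjusted p 0.00969, edgeR). In all 3 genes E15.5 replicate 1 was the lowest library of its stage, at 3.65, 2.34 and 2.43 times the highest neighbour in the order given. The rule for a peak fixed in advance that this library lay above every neighbour. That library also had the fewest olfactory receptor counts of the 9, 643 against 14979 and 13856 in the other E15.5 libraries. When each of the 9 libraries was left out in turn, *Ccno* passed every time (adjusted p between 0.000581 and 0.0241, edgeR). *Mcidas* and *Cdc20b* passed in 7 of the 9 and missed the threshold without E15.5 replicate 2 or 3, where the highest adjusted p values were 0.0570 and 0.0639.

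**Figure D2:**
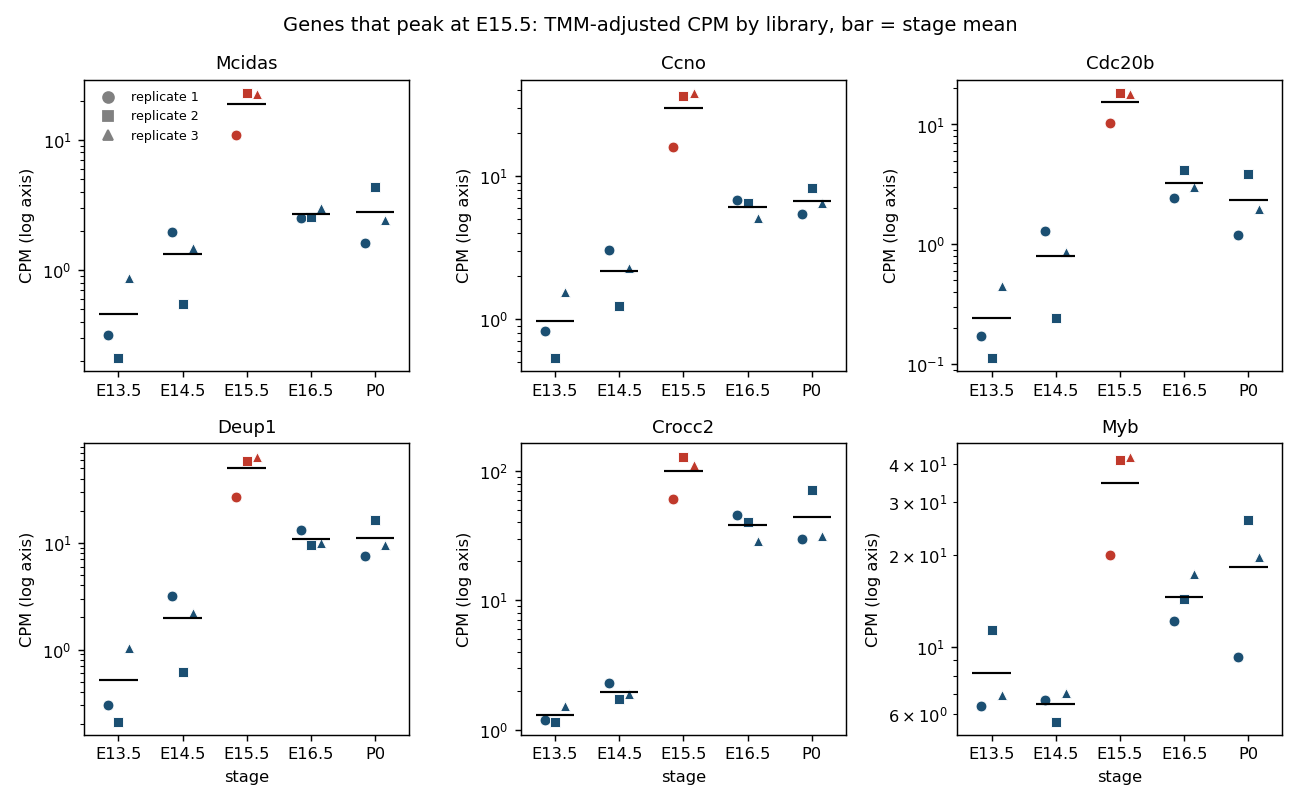
TMM-adjusted CPM of 6 peak genes in each of the 15 libraries (y axes, logarithmic) by stage (x axes), with bars at stage means and E15.5 in red. In each gene the 3 E15.5 libraries lie above all E14.5 and E16.5 libraries, as the rule for a peak requires. Replicate 1 is the lowest of the 3.

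The genes around this trio did not share the call. *Plpp1*, *Mtrex*, *Dhx29*, *Gm10735*, *Gpx8*, *Gzma* and *Esm1*, which flank the trio or lie within *Cdc20b* on the other strand, had differences from -0.32 to 0.15. The lowest adjusted p among them was 0.145, for *Dhx29*, an RNA helicase of translation initiation.

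**Figure D3:**
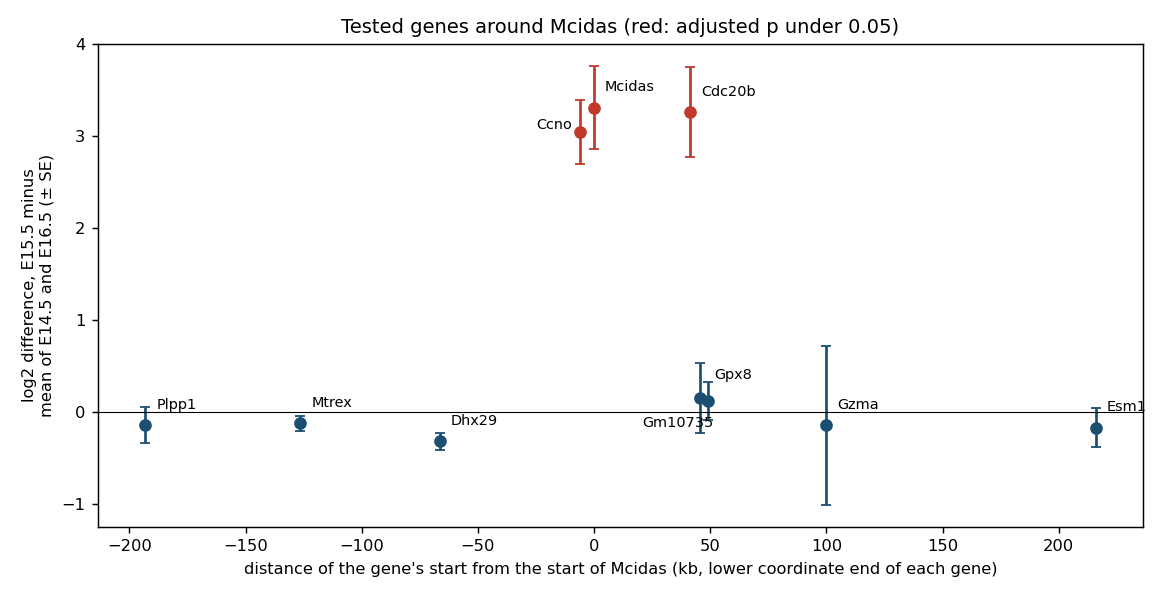
Log2 difference of E15.5 from the mean of E14.5 and E16.5 (y axis, points with SE bars) for tested genes, by the distance of each gene's lower coordinate end from that of Mcidas (x axis, kb). Ccno, Mcidas and Cdc20b lie between 3.04 and 3.31, and the other 7 genes between -0.32 and 0.15.

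The miRNA genes *Mir449a*, *Mir449b* and *Mir449c* lie inside *Cdc20b*, and the miR-449 family is known in multiciliated cells for lowering Notch signalling and cell cycle genes. The mature 5p sequences of *Mir449a* and *Mir449c* are shown, from RefSeq, because they share their seed (bases 2 to 8, capitals), the stretch that pairs with targets.
miR-449a-5p: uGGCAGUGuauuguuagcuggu
miR-449c-5p: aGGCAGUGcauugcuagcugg

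The libraries counted fragments over the hairpin genes, which does not measure the mature miRNA and cannot be told apart from unspliced *Cdc20b* RNA. *Mir449a* had 8, 8 and 17 fragments in the E15.5 libraries, against 1, 0 and 1 at E14.5 and 1, 0 and 1 at E16.5. *Mir449b* had 8, 7 and 11 at E15.5 and 0 in each of the 6 neighbouring libraries. *Mir449c* had 3, 12 and 14 at E15.5, 0 in each E14.5 library and 4, 0 and 0 at E16.5. The E15.5 libraries were apart from all neighbours for *Mir449a* and *Mir449b*, while those of *Mir449c* overlapped E16.5. None of the 3 passed the filter on low counts, and with no filter their adjusted p values were 0.0757, 0.0353 and 0.112 (edgeR). *Mir34b* and *Mir34c*, related hairpins on chromosome 9, had at most 1 fragment in any of the 9 libraries.

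*Deup1* (chromosome 9, 15559864 to 15627933), which encodes the scaffold of the deuterosome, was at 3.16, 0.621 and 2.19 CPM at E14.5, 26.9, 58.4 and 64.5 CPM at E15.5 and 13.1, 9.63 and 9.91 CPM at E16.5. The lowest E15.5 library was 2.05 times the highest neighbour, and the difference was 3.42 (SE 0.50, adjusted p 0.00791, edgeR). *Deup1* also missed the threshold without E15.5 replicate 2 or 3 (highest adjusted p 0.0601). *Crocc2* (chromosome 1, 93168725 to 93231072), a paralogue of the ciliary rootlet protein rootletin, was at 2.27, 1.73 and 1.88 CPM at E14.5, 60.4, 129 and 112 CPM at E15.5 and 46.1, 40.5 and 28.6 CPM at E16.5. The log2 step from E15.5 to E16.5 was -1.387 for *Crocc2* and -2.197 for *Deup1*, and neither step passed on its own (adjusted p 0.0665 and 0.0848, edgeR). *Crocc2* kept its call in all 9 fits that left out 1 library. The adjusted p of *Crocc2*, 0.000337, was the lowest among the peaks, shared with the antisense transcript *Rptoros* (edgeR). *Myb*, a transcription factor of blood precursors that also acts early in multiciliation, was at 6.65, 5.66 and 7.04 CPM at E14.5, 20.1, 41.3 and 42.3 CPM at E15.5 and 12.1, 14.4 and 17.4 CPM at E16.5 (difference 1.83, SE 0.31, adjusted p 0.0185, edgeR). The *Myb* groups were apart by a narrower margin, with E15.5 replicate 1 at 1.16 times the highest E16.5 library.

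The other peaks that met the rule for naming included further centriole genes. *Poc1a*, a centriole structure gene, was at 10.4, 11.2 and 13.4 CPM at E14.5, 18.3, 26.0 and 26.3 CPM at E15.5 and 16.8, 10.6 and 13.8 CPM at E16.5 (difference 0.89, SE 0.16, adjusted p 0.0258, edgeR). *Hyls1*, a centriole protein needed for cilia, was at 16, 13.7 and 13.2 CPM, then 17.1, 25.9 and 27.7 CPM, then 8.81, 8.19 and 8.64 CPM (difference 1.09, SE 0.23, adjusted p 0.0456, edgeR). *Hyls1* thus moved mainly downwards after E15.5, by 1.46 on the log2 scale (adjusted p 0.0333), while the rise of 0.72 before it did not pass (adjusted p 0.0676). *Wdr90*, a protein of the centriole wall, was at 52.6, 50.4 and 47.1 CPM, then 70.6, 97.8 and 91.8 CPM, then 47.9, 51.8 and 48.7 CPM (difference 0.80, SE 0.13, adjusted p 0.0185, edgeR). *Pidd1*, part of the complex that activates caspase-2, was at 13.6, 13.6 and 14.5 CPM, then 19.1, 28.5 and 29.9 CPM, then 11.03, 13.3 and 12.8 CPM (difference 0.98, SE 0.17, adjusted p 0.0199, edgeR). In *Wdr90* the E14.5 and E16.5 libraries overlapped each other, and in *Pidd1* all 3 E16.5 libraries lay just under the E14.5 libraries. *Ccdc18*, a coiled-coil gene, had means of 5.71 ± 0.51, 12.2 ± 2.85 and 3.89 ± 0.71 CPM (SD, n = 3) over the 3 stages, with an adjusted p of 0.0352 from edgeR. *Dnah8*, an axonemal dynein heavy chain best known from sperm tails, was at 3.396, 3.18 and 3.15 CPM, then 13.6, 21.2 and 18.3 CPM, then 7.27, 7.50 and 7.49 CPM (difference 1.85, SE 0.19, adjusted p 0.0013, edgeR). *Dnah8* was also called in all 9 fits that left out 1 library, whereas *Hyls1* and *Ccdc18* were called in 1, *Poc1a* in 3, *Pidd1* in 4 and *Myb* and *Wdr90* in 5.

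Across a list of 29 tested genes for multiciliated cell fate and centriole amplification, 8 were higher at E15.5 than the mean of its neighbours and 6 were peaks (*Mcidas*, *Ccno*, *Cdc20b*, *Deup1*, *Myb* and *Hyls1*). Over all tested genes, 0.862% were higher and 0.235% were peaks. The median difference of the list was 0.72, against 0.0046 over all tested genes. The list was chosen with earlier results of these data known, so its counts and median are not independent of the calls. In 10 of the 29 genes every E15.5 library lay above all 6 others, which held for 2.15% of all tested genes. The 4 of these that were not called were *Foxn4* (adjusted p 0.0591), *Stil* (0.0864), *Plk4* (0.136) and *E2f7* (0.150, edgeR). *Foxn4*, a transcription factor of multiciliated precursors, was at 1.99, 0.605 and 0.730 CPM at E14.5, 6.46, 14.03 and 14.5 CPM at E15.5 and 2.89, 2.49 and 2.69 CPM at E16.5. The 2 genes that were higher without being peaks were *Foxj1*, the master regulator of motile cilia, and the deuterosome gene *Ccdc78*. *Foxj1* was at 47.2, 18.3 and 26.6 CPM, then 81.6, 181 and 197 CPM, then 122, 91.6 and 82.9 CPM, and its E15.5 replicate 1 lay below all E16.5 libraries. *Ccdc78* was at 0.0623, 0 and 0.0702 CPM, then 4.59, 14.2 and 13.7 CPM, then 30.2, 18.8 and 14.9 CPM, so it was highest at E16.5.

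Genes that act beside multicilin showed other courses. *E2f4*, its DNA-binding partner, was at 54.6 to 63.6 CPM at E14.5, 54.2 to 57.7 CPM at E15.5 and 48.4 to 56.1 CPM at E16.5 (adjusted p 0.953, edgeR). *Gmnc*, the geminin relative that acts upstream of *Mcidas*, was at 7.20, 1.91 and 3.96 CPM, then 1.40, 5.56 and 5.34 CPM, then 0.863, 1.27 and 0.979 CPM. The *Gmnc* libraries of E14.5 and E15.5 overlapped, and its adjusted p was 0.373. E15.5 replicate 1 was the lowest library of its stage in 26 of the 29 list genes and in 46 of the 52 peaks. The share of all tested genes for which this held was not counted. It was not particular to these genes, as it held for 17 of 17 nasal secretory genes and 19 of 20 oral epithelial genes, but for 0 of 22 skeletal muscle genes.

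The steps on either side of E15.5 were also counted for a list of 37 tested motile cilium structure genes. The steps share the E15.5 libraries, and a difference between the lists was not tested. Of the fate genes 9 of 29 were higher at E15.5 than at E14.5, and of the structure genes 35 of 37, against 12.7% of all tested genes. Between E15.5 and E16.5, 3 of 29 fate genes were lower at E16.5 (*Mcidas*, *Ccno* and *Hyls1*) and 0 of 37 structure genes, against 0.379% of all tested genes. At an unadjusted p under 0.05 these counts were 19 and 1, against 9.64% of all tested genes. The mean at E16.5 was below that at E15.5 in 26 of 29 fate genes and in 12 of 37 structure genes. The median log2 steps were 0.64 and then -0.83 for the fate genes, and 2.76 and then 0.20 for the structure genes. In the contrast with both neighbours 11 structure genes were higher, against 0.862% of all tested genes. Of the structure genes 0 were peaks (0.235% of all tested genes), and in 0 did all E15.5 libraries lie above all 6 others (2.15%). The axonemal dynein gene *Dnah8*, which was a peak, is not on this list.

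The structure genes had summed levels of 561, 448 and 485 CPM at E14.5, 1042, 1817 and 1775 CPM at E15.5 and 2368, 2036 and 1664 CPM at E16.5. The E15.5 and E16.5 libraries overlapped and both lay above E14.5. *Ccdc153*, a dynein-associated gene, showed this course with 0.203, 0.167 and 0.155 CPM, then 11.3, 39.9 and 41.8 CPM, then 114, 73.5 and 64.3 CPM. *Dnah5*, an outer-arm dynein heavy chain, was at 4.03, 2.29 and 2.40 CPM, then 17.3, 52.0 and 40.3 CPM, then 38.1, 56.0 and 53.5 CPM. Both stayed high after E15.5, in contrast to *Mcidas* in the same libraries. E15.5 replicate 1 was the lowest of its stage in 36 of the 37 structure genes.

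**Figure D4:**
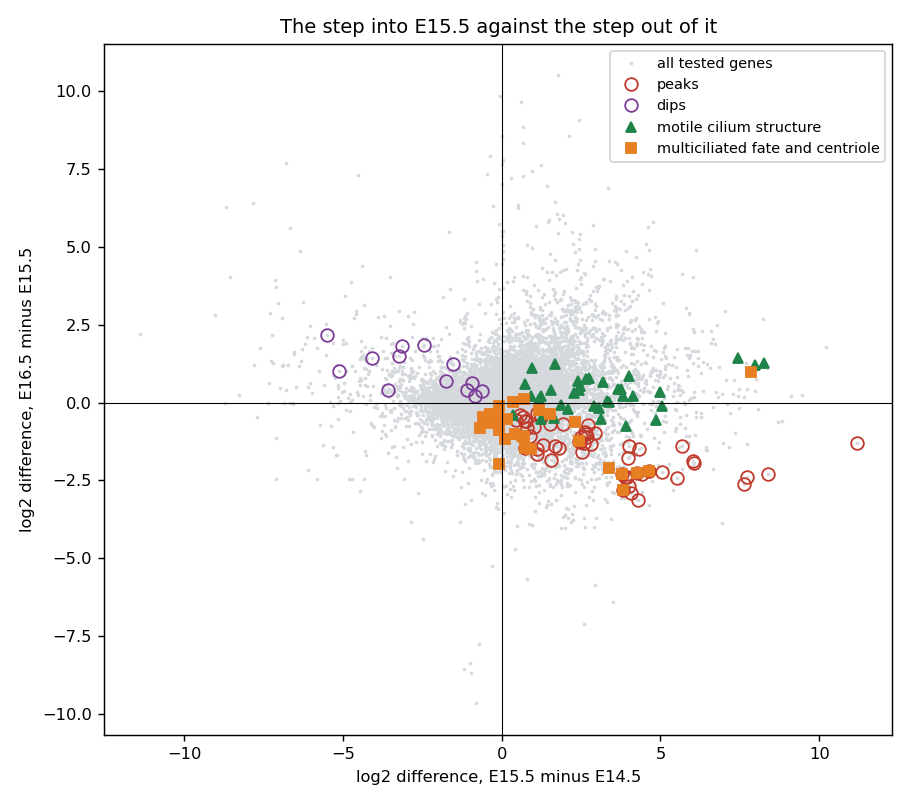
Log2 difference of E15.5 from E14.5 (x axis) against that of E16.5 from E15.5 (y axis) for all 22151 tested genes (grey), the peaks and dips (circles), the fate and centriole list (squares) and the motile cilium structure list (triangles). The structure genes have a median of 2.76 on the x axis and 0.20 on the y axis, and the fate genes 0.64 and -0.83.

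The remaining peaks were of many kinds and mostly at low levels. Of the 52, 19 had a mean of at least 10 CPM at E15.5, 19 lay between 1 and 10 CPM and 14 below 1 CPM. The median step was 2.67 up from E14.5 and -1.40 on to E16.5. Both steps were at least 2-fold in 36 peaks and at least 4-fold in 15. The peaks comprised 38 protein-coding genes (73.1%, against 76.8% of tested genes) and 14 others, including 6 lincRNAs and 4 antisense transcripts. The other 7 peaks with a mean of at least 10 CPM were *Helb*, a DNA helicase gene, *Lgi2*, *Tent5a*, *Tbc1d31*, *Cep41*, *Mylk*, the gene of myosin light chain kinase, and *Cep83os*, a transcript that starts 78 bases from *Cep83*. They fall outside the rule for naming and were picked after their values were seen. Their differences ranged from 0.50 to 0.85, and *Helb* was at 11.8, 17.1 and 17.7 CPM at E14.5, 27.1, 25.7 and 26.3 CPM at E15.5 and 16.3, 16.2 and 20.3 CPM at E16.5 (adjusted p 0.0441, edgeR). When each library was left out in turn, *Helb* was called in 0 of the 9 fits (adjusted p 0.0537 to 0.272), *Lgi2* in 3, *Tbc1d31* and *Mylk* in 2 and the other 3 in 1.

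Some low peaks were singled out after their values were seen. *Rptoros*, a transcript antisense to *Rptor*, had 0 counts in all E14.5 libraries, 2.80, 6.59 and 6.47 CPM at E15.5 and 2.55, 1.88 and 1.96 CPM at E16.5. Its E15.5 mean was at least 118-fold higher than the floor of 3 counts per E14.5 library. *Rptor* itself, counted on the other strand, had a difference of -0.19 (adjusted p 0.287, edgeR). *4930444F02Rik*, a lincRNA on chromosome 10, was at 0, 0 and 0.0281 CPM, then 2.85, 5.22 and 4.09 CPM, then 0.604, 0.996 and 0.856 CPM (difference 5.35, SE 0.51, adjusted p 0.00109, edgeR). Both transcripts were called in all 9 fits that left out 1 library, and their highest adjusted p values there were 0.00299 and 0.00851.

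*Zan*, *Fbxo43*, *Ldhc* and *Tesmin* were picked in the same way. *Zan*, the gene of the sperm protein zonadhesin, was at 1.37, 1.65 and 2.02 CPM at E14.5, 6.12, 5.62 and 4.47 CPM at E15.5 and 2.03, 2.46 and 1.66 CPM at E16.5 (difference 1.54, SE 0.17, adjusted p 0.00267, edgeR). *Zan* was 1 of 6 peaks in which E15.5 replicate 1 was not the lowest of its stage, and here it was the highest. *Fbxo43*, an inhibitor of the anaphase-promoting complex known from oocytes, was at 0.187, 0.106 and 0.126 CPM, then 1.15, 2.52 and 3.17 CPM, then 0.345, 0.470 and 0.245 CPM (difference 3.35, SE 0.46, adjusted p 0.007, edgeR). *Ldhc*, the lactate dehydrogenase of sperm, reached 0.253, 0.522 and 0.622 CPM at E15.5 against at most 0.173 CPM in a neighbour. *Ldhc* and *Tesmin* were called in 2 and 1 of the 9 fits that left out 1 library, *Fbxo43* in 7 and *Zan* in all 9.

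Other low peaks, also picked after their values were seen, were of unlike kinds. *Nags*, the enzyme that makes the activator of the urea cycle, was at 0.0935, 0.0151 and 0.0281 CPM at E14.5, 1.58, 3.71 and 4.22 CPM at E15.5 and 0.928, 0.858 and 0.685 CPM at E16.5 (difference 4.01, SE 0.47, adjusted p 0.00312, edgeR). *Spn*, the leukocyte surface protein CD43, was at 0.498, 0.515 and 0.646 CPM, then 1.96, 3.15 and 4.22 CPM, then 1.70, 1.05 and 1.54 CPM. The E16.5 libraries of *Spn* lay between those of E14.5 and E15.5, and its P0 libraries overlapped E15.5. *Bmp8b*, a BMP ligand, was at 1.18, 1.33 and 1.42 CPM, then 1.69, 3.71 and 3.04 CPM, then 1.04, 0.941 and 1.03 CPM (adjusted p 0.0414, edgeR). *Slc47a2*, a transporter of organic cations, was at 0.0623, 0.0605 and 0.126 CPM, then 0.877, 1.73 and 1.50 CPM, then 0.755, 0.526 and 0.269 CPM. *Nags* was called in all 9 fits that left out 1 library, *Spn* in 7, *Slc47a2* in 6 and *Bmp8b* in 1. For the 14 peaks that do not encode a protein, the nearest tested gene was called in 0 cases, and the lowest adjusted p among those neighbours was 0.0612 (edgeR).

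A pair of called genes belong to large families whose near-identical copies make the counts uncertain. *Hist1h2ad*, a replication-dependent histone gene, was at 0.0467, 0.0303 and 0.0281 CPM at E14.5, 0.135, 0.298 and 0.231 CPM at E15.5 and 0.108, 0.0830 and 0.0734 CPM at E16.5 (adjusted p 0.0397, edgeR). It was the only call among 39 tested histone genes, and most of these values rest on few counts. *Olfr333-ps1* was the only call among 252 tested olfactory receptor genes, at 0.253, 0.567 and 0.752 CPM at E15.5 against at most 0.0979 CPM in a neighbour. Over all tested genes 0.235% were peaks, so 1 call among 252 genes is near that share. The contrast without E15.5 replicate 1 had 356 peaks among 23063 tested genes. These included 59 olfactory and 9 vomeronasal receptor genes, 9 of the fate list and 8 of the structure list. How many members of each group were tested in that fit was not counted. Of the 52 peaks, 49 were among these 356. The vomeronasal receptor genes summed to 1.62 CPM in E15.5 replicate 1 and to 12.2 and 15.9 CPM in replicates 2 and 3, and the part of nasal sensory tissue in the result was not tested.

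Some marker genes of olfactory neurons followed the same split, such as *Omp* and *Neurog1*. The summed CPM of the marker list did not, at 506, 504 and 440 CPM in E15.5 replicates 1, 2 and 3. *Omp*, the olfactory marker protein gene, was at 2.15, 1.15 and 1.88 CPM at E14.5, 0.641, 30.3 and 29.9 CPM at E15.5 and 5.89, 13.7 and 17.5 CPM at E16.5. *Neurog1*, which specifies their precursors, was at 8.19, 2.15 and 3.27 CPM, then 0.135, 6.38 and 7.54 CPM, then 0.259, 1.11 and 0.807 CPM. Of 12 such markers 0 were called and 3 were higher at an unadjusted p under 0.05 (edgeR; 8.79% of all tested genes were), and in 10 of them E15.5 replicate 1 was the lowest of its stage. The lowest E15.5 value of *Omp*, in replicate 1, lay below all 6 neighbours. A comparison with *Ccno* and *Mcidas* on this point is not informative, because the rule for a peak fixed their order.

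By the median, the 13 dips had their larger step before E15.5. The median step was -2.45 from E14.5 to E15.5 and 1.01 from E15.5 to E16.5, and both steps were at least 2-fold in 7. In 12 of the 13, the E14.5 libraries stood in the order replicate 1, 2, 3 from high to low, which is the order of the trunk Hox sum in those libraries (658, 216 and 71.9 CPM). It was not particular to trunk Hox genes, as the sums of nerve and Schwann cell, brain and olfactory neuron markers stood in the same order. The share of all tested genes in that order was not counted. Choroid plexus markers had another order there, at 1447, 33.6 and 796 CPM. The part of other tissue in the dips was not tested. The count was 0 without E15.5 replicate 2 or 3, 25 without E15.5 replicate 1, 2 and 1 without E14.5 replicates 1 and 2, and 5, 2 and 2 without E16.5 replicates 1, 2 and 3. Where it was 0, 796 and 811 genes had a difference below 0 at an unadjusted p under 0.05 (edgeR). No dip was called in all 9 such fits.

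*Bcan*, which encodes the brain matrix protein brevican, was the deepest of the 6 dips with a mean of at least 10 CPM at both E14.5 and E16.5. It was at 49.2, 39.2 and 18.3 CPM at E14.5, 6.05, 3.34 and 2.81 CPM at E15.5 and 12.95, 18.3 and 11.9 CPM at E16.5 (difference -2.48, SE 0.52, adjusted p 0.0456, edgeR). The E15.5 libraries lay below all 6 neighbours but overlapped those of E13.5, at 4.33, 5.38 and 1.35 CPM. The only E14.5 library near the E16.5 level was replicate 3. *Rnf152*, a ubiquitin ligase gene, was at 130, 89.8 and 56.9 CPM, then 8.43, 8.12 and 6.52 CPM, then 11.1, 9.46 and 10.2 CPM (difference -2.0, SE 0.41, adjusted p 0.0441, edgeR). Its return to E16.5 was small, at 0.42 on the log2 scale, and did not pass (adjusted p 0.606). *Fam49b*, *Mfhas1*, *Rcan1* and the X-linked pseudogene *Sms-ps* dipped by less, with differences from -0.51 to -0.78 and adjusted p values from 0.0367 to 0.0422 (edgeR). *Rcan1*, an inhibitor of calcineurin, was at 89.6, 75.6 and 67.2 CPM, then 48.3, 47.9 and 53.2 CPM, then 68.9, 61.7 and 64.3 CPM. When each library was left out in turn, *Bcan*, *Fam49b* and *Sms-ps* were called in 2 of the 9 fits and *Rnf152*, *Rcan1* and *Mfhas1* in 1. Reads of *Sms-ps* may be shared with its parent gene *Sms*, so its values are uncertain.

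A few dips below that level were singled out after their values were seen. *Olig3*, a transcription factor of neural progenitors, was at 6.06, 4.04 and 3.08 CPM, then 0.135, 0.104 and 0.130 CPM, then 0.324, 0.277 and 0.147 CPM. The E16.5 libraries of *Olig3* were barely above those of E15.5, and 7 of the 9 fits that left out 1 library called it. *Slco1c1*, a thyroid hormone transporter of the blood-brain barrier and choroid plexus, was at 25.0, 6.36 and 13.7 CPM, then 1.06, 0.880 and 0.694 CPM, then 1.42, 1.19 and 4.53 CPM, and 0 of the 9 fits called it. *Adra1b*, an adrenergic receptor gene, was at 6.96, 6.30 and 3.93 CPM, then 1.80, 1.77 and 1.53 CPM, then 2.87, 2.79 and 2.57 CPM. The transcript *AW047730* was at 14.6, 11.4 and 5.81 CPM, then 0.371, 0.253 and 0.0723 CPM, then 0.820, 0.747 and 1.54 CPM. *Adra1b* and *AW047730* were called in 1 of the 9 fits. *Gm44210* and *Gm3591* stayed under 1 CPM in all 9 libraries and were called in 2 and 3 of the fits, and reads of *Gm3591* may be shared with near-identical copies.

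**Figure D5:**
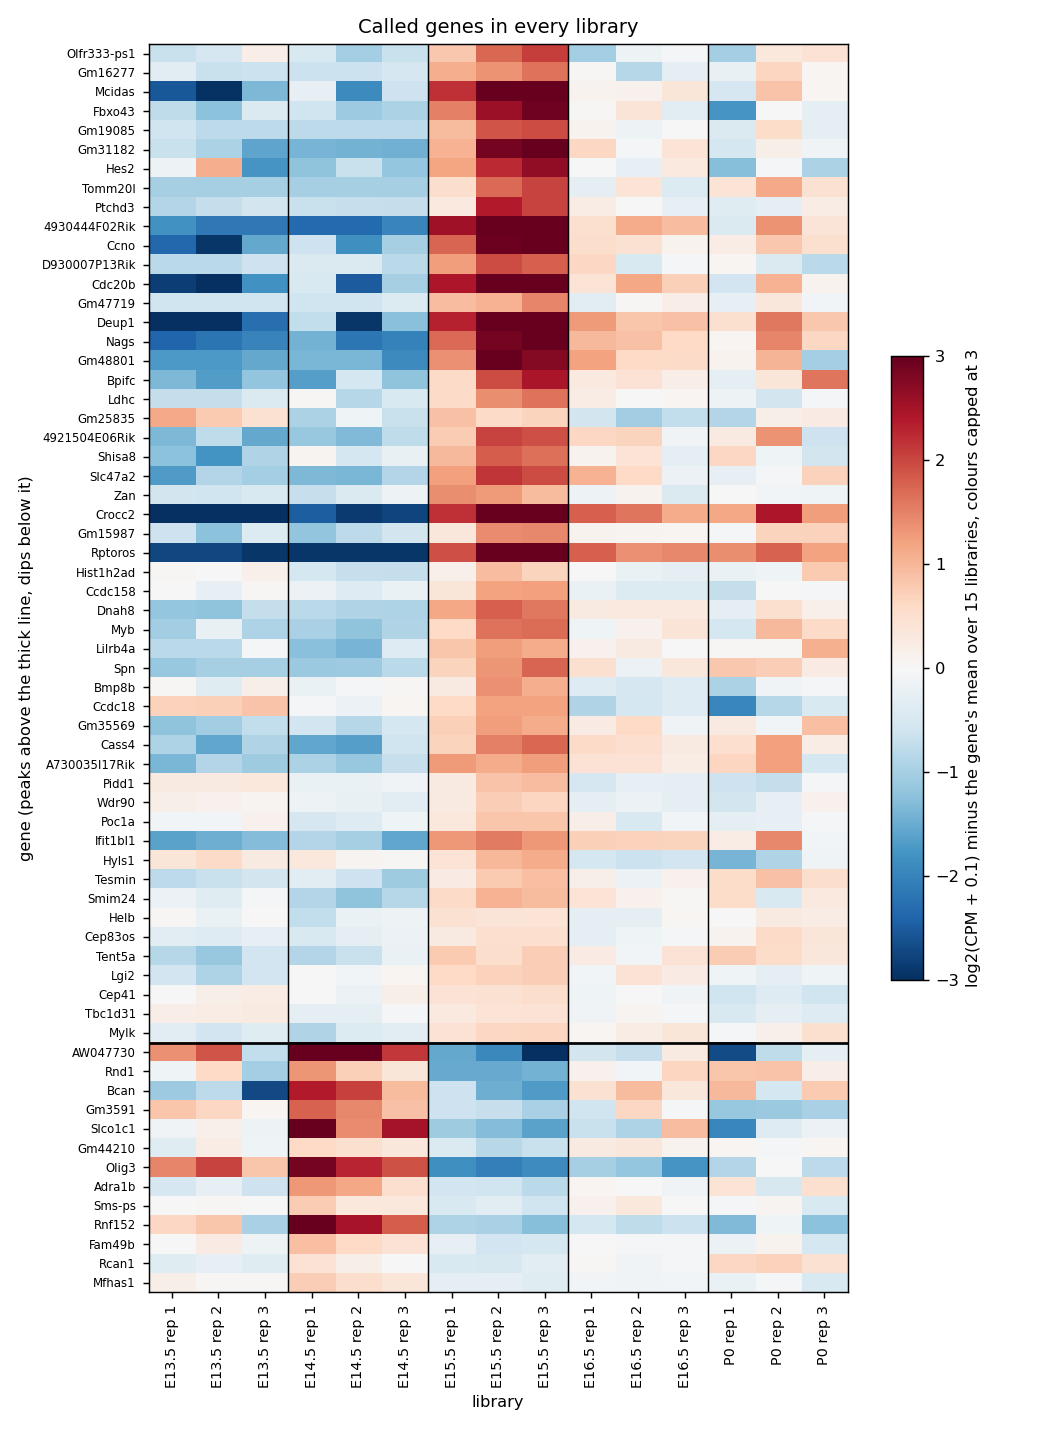
Levels of the 52 peaks (above the thick line) and 13 dips (below it) in all 15 libraries, as log2(CPM + 0.1) minus the mean of each gene, with colours capped at 3. Each group is ordered by the smaller of its steps, and the E15.5 columns of the peaks stand above both neighbours, in 46 of 52 peaks least in replicate 1.

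The E13.5 and P0 libraries had no weight in the contrast, but they entered the fit behind the calls. Their levels showed how far the pattern was limited to E15.5. In 31 of the 52 peaks every E15.5 library also lay above all E13.5 and P0 libraries. All E13.5 libraries were below E15.5 in 48 peaks and overlapped in 4 (*Ccdc18*, *Pidd1*, *Hyls1* and the snoRNA *Gm25835*), and all P0 libraries were below in 35 and overlapped in 17. *Mcidas* was at 0.315, 0.211 and 0.862 CPM at E13.5 and 1.61, 4.33 and 2.44 CPM at P0, below every E15.5 library. *Pidd1* was at 18.95, 18.8 and 19.7 CPM at E13.5, about the level of E15.5 replicate 1. *Crocc2* was at 29.5, 71.1 and 31.4 CPM at P0 and overlapped E15.5. Only 3 of the 13 dips lay below all 12 other libraries, and in 9 of them all E13.5 libraries were above E15.5.

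The contrast alone did not single out a transient course. Of the 191 genes higher at E15.5, 139 were not above all 6 neighbours, with a median rise of 4.16 from E14.5 and a median of -0.03 from E15.5 to E16.5. In 68 of the 191 the E16.5 mean was at or above the E15.5 mean. Examples were the bone genes *Col1a1*, *Dmp1* and *Bglap2*, which were the 3 higher genes of 20 osteoblast and osteocyte genes and of which 0 were peaks. Over all tested genes, 0.862% were higher and 0.235% were peaks, so 0 peaks in such a list is near the share of all genes. *Dmp1*, an osteocyte matrix gene, was at 1.03, 0.999 and 0.941 CPM, then 35.2, 44.1 and 58.1 CPM, then 65.8, 51.6 and 123 CPM. The oral epithelial keratin *Krt13* rose likewise, from 0.499 to 0.997 CPM at E14.5 to 57.9, 146 and 331 CPM at E15.5 and 305, 382 and 483 CPM at E16.5. Separation without a test was common in both directions, at 476 genes above and 474 genes below all 6 neighbours (2.15% and 2.14%).

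A stricter rule asked each step to pass by using the larger of the 2 p-values for each gene. With edgeR it called 0 peaks and 0 dips, with a smallest adjusted p of 0.463. At an unadjusted p under 0.05 in both steps, 195 genes rose and fell and 139 fell and rose. DESeq2 called 9 peaks under this rule (*Ccno*, *Mcidas*, *Dnah8*, *Zan*, *Fbxo43*, *Wdr90*, *Pidd1*, *Ccdc158* and *4930444F02Rik*) and 1 dip. When each step was adjusted on its own, 13 genes passed both as a peak, and of the 2 that fell and then rose 1 was a dip (edgeR). The other, *Atp6v1c1*, a proton pump subunit gene, had a contrast adjusted p of 0.0687. The peaks nearest the threshold were *4921504E06Rik*, *Olfr333-ps1*, *Tesmin*, *Cep41* and *Lilrb4a*, all at an adjusted p of 0.0457, and the nearest separated genes outside it were *Cmah* (0.0508), *Fam50b* (0.0509) and *Gm26684* (0.0525).

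*Sost* and *Pax9*, which the aims of the series name, did not peak. *Sost*, the gene of the Wnt antagonist sclerostin, was at 0.685, 0.560 and 0.576 CPM at E14.5, 1.97, 1.73 and 2.31 CPM at E15.5 and 4.34, 3.54 and 3.72 CPM at E16.5, so it lay between its neighbours (difference 0.39, SE 0.30, adjusted p 0.506, edgeR). *Pax9*, a transcription factor required for palate closure, was at 31.7, 51.2 and 50.7 CPM, then 28.5, 59.4 and 61.7 CPM, then 23.8, 46.5 and 36.8 CPM, with overlapping groups (adjusted p 0.624). Of 31 lists of pathway and marker genes, 29 held no peak or dip, among them palate patterning, Wnt ligands, secreted Wnt antagonists, cartilage, skeletal muscle, endothelium and cell cycle genes. Peaks made up 0.235% and dips 0.0587% of all tested genes, so a short list without either is near those shares. The cell cycle list had E16.5 means below the E15.5 means in 27 of 27 genes, with a median of -0.56. At an unadjusted p under 0.05, 19 of the 27 were lower at E16.5, as many genes as in the fate list. In the contrast 0 of the 27 were called, and 3 were higher at an unadjusted p under 0.05 (edgeR), against 8.79% of all tested genes.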

How the data were processed

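Bulk RNA-seq of the palate was compared between stages of 3 libraries each, each library a pool of 3 embryos. The deposited values were fragment counts per gene. Per the submitters' processing notes, cutadapt 3.4, FastQC 0.11.9, Bowtie2, HISAT2 2.2.1, SAMtools 1.12, Subread 2.0.1 and build mm10 were used. Per the file headers, the authors counted with featureCounts 2.0.1, by strand and by fragment, on GENCODE M18, with no option for multi-mapping reads, so near-identical genes are undercounted. Symbols came from GENCODE M21.

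Counts were tested in R 4.3.3 with edgeR 4.0.16 (quasi-likelihood F test, TMM scaling, filterByExpr with a minimum count of 10, Benjamini-Hochberg threshold 0.05). All 15 libraries entered with 1 coefficient per stage, and the contrast weighted E15.5 by 1 and E14.5 and E16.5 by -0.5 each. limma 3.58.1 was loaded with it, and DESeq2 1.42.0 was an alternative. Other alternatives were scaling, filters, the 9 libraries alone, a replicate block, leaving out each library and, chosen after seeing the data, thinning to the smallest total count. Named genes were the 12 peaks and 12 dips with the largest smaller step among those with a mean of at least 10 CPM (at E15.5 for a peak, at E14.5 and at E16.5 for a dip), plus up to 6 called genes of each list. The code was checked on simulated data. Totals of 37109472 to 69019565 counts per library set the floor of 3 counts at 0.0421 to 0.0830 TMM-scaled CPM, which covers counting error only. The contrast, the lists and the genes followed were chosen with earlier results of these data known. The values of 1 dip are not reported here.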

Additional observations from a re-analysis of the deposited data

How the results depend on the processing

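With DESeq2 the contrast had 577 higher and 444 lower genes, 143 peaks and 148 dips, and all 52 peaks and 13 dips were among them. DESeq2 called 9 peaks and 1 dip when both steps had to pass. A mean of at least 1 CPM left 10 lower genes and 33 peaks. The fit of the 9 libraries alone had 119 higher genes. Thinning to the smallest total gave 114 higher and 5 lower genes and 4 dips. The cause of these shifts was not tested. Leaving out 1 library gave 16 to 590 higher genes, 0 to 32 lower genes, 8 to 356 peaks, 0 to 25 dips, and 0 peaks and 0 dips with both steps passing.

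Same-numbered libraries did not deviate together (correlations from -0.221 to 0.207 in 9 pairs, 2 of them over 0.1), so the replicate number was not treated as a pairing. With the number as a block there were 75 lower genes, 27 dips, 181 higher genes and 59 peaks.

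Upper-quartile scaling, DESeq2 size factors and no filter kept every count within 1.5 times. Of 320 refits of 19 named genes, 212 kept direction and call, 108 lost the call and 0 reversed. With 3 pools per stage, pooled embryos and unknown litters, p-values measure the spread between these pools.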
